A study of Arabidopsis thaliana with 21 samples.

Results

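Wild-type seedlings of Arabidopsis thaliana (accession Col-0) that had been moved to high light for 2 h were compared with wild-type seedlings kept in growth light, with all genes of adequate count as the unit of description. Of the 32833 genes in the table, 18425 passed the filter on low counts and were tested. The high-light group (HL) was 7-day-old seedlings that spent those 2 h at 500 µmol m-2 s-1, and the growth-light group (GL) was seedlings of the same age at 100 µmol m-2 s-1, each with 3 libraries described as biological replicates. All were raised on solid Murashige and Skoog medium in long days, and whole seedlings were sequenced as poly-T-selected RNA, so that the groups differed, as far as the labels state, in the light alone. The temperature of leaves or plates during the exposure, the light spectrum and the hour of sampling are not given in the sources used here. The other 15 of the 21 libraries of the series, from hy5 mutants and from lines that carry HY5-GFP, entered only an alternative estimate of the spread.

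Light above what photosynthesis can use loads the chloroplast with excess excitation and reactive oxygen species, and plants answer with photoprotective proteins, antioxidant enzymes, flavonols and a transient set of heat shock proteins. Small heat shock proteins hold unfolding proteins, HSP70, HSP90, HSP101 and their partners refold or disaggregate them, and heat shock factors (HSF) switch both kinds of gene on by binding inverted GAA repeats called heat shock elements. The bZIP factor HY5 links photoreceptors to flavonol and photoprotection genes, while PIF factors drive elongation growth and are held back by light.

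The high-light libraries held 20003295, 12918249 and 20156211 counts in replicates 1, 2 and 3, and the growth-light libraries held 17143679, 13545719 and 18030809. High-light replicate 3 stood apart from the other libraries. Across the 18425 genes, its log2 CPM (counts scaled to a common library size by TMM) correlated with high-light replicates 1 and 2 at a Spearman rho of 0.771 and 0.818, whereas those 2 correlated with each other at 0.952. The growth-light libraries correlated among themselves at 0.984 to 0.988. High-light replicate 1 correlated with the growth-light libraries at 0.817 to 0.827, and replicate 2 at 0.840 to 0.845. Both were thus closer to growth light than to high-light replicate 3 by this measure. Replicate 3 correlated with the growth-light libraries at 0.732 to 0.739. Genes are not independent replicates, so these are descriptions. The median SD of log2 CPM per gene was 0.711 over the high-light libraries and 0.171 over the growth-light libraries.

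**Figure D1:**
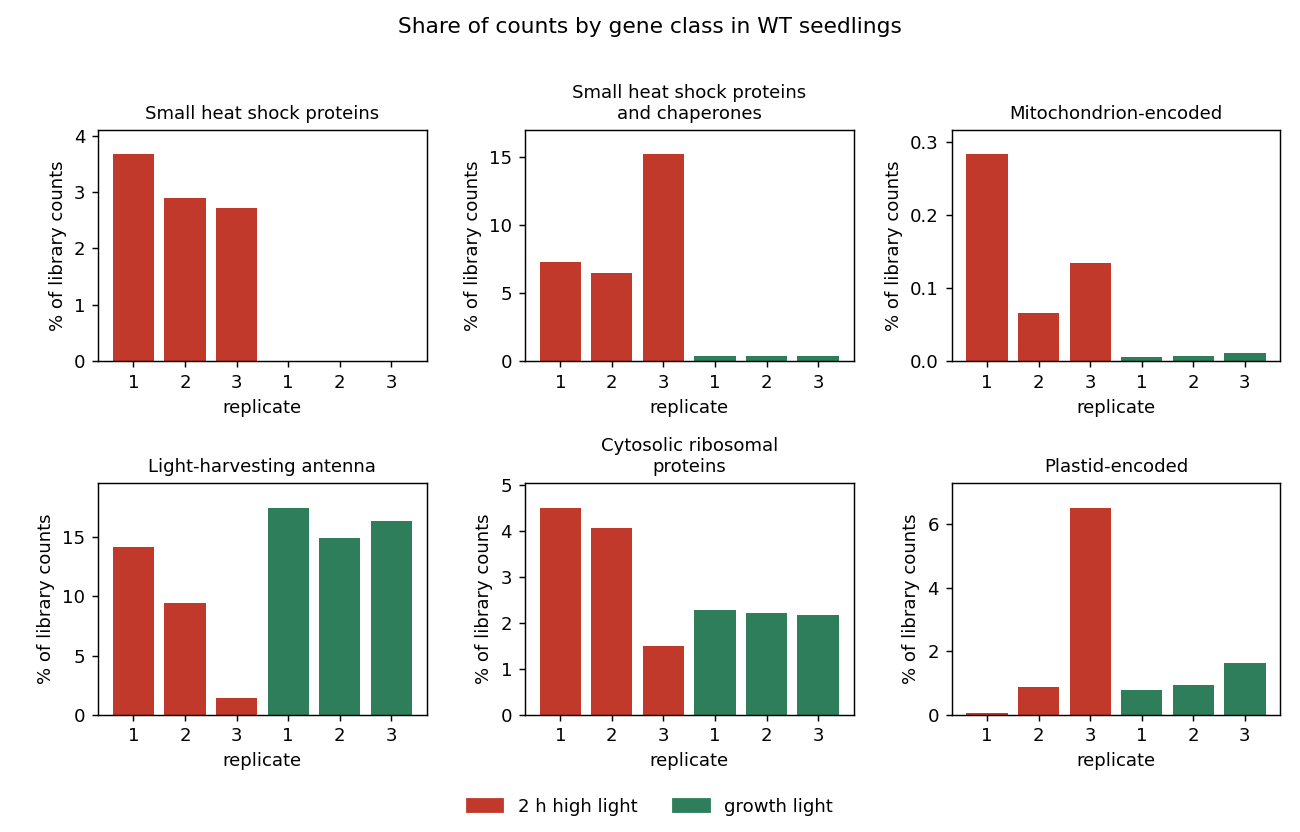
Share of all counts taken by gene classes in each library, in percent, with the 3 high-light libraries left of the 3 growth-light libraries. Light-harvesting antenna genes hold 14.1%, 9.45% and 1.45% of the high-light libraries and 14.9% to 17.5% of the growth-light ones. The heat shock and chaperone lists hold 7.27%, 6.48% and 15.2% of the high-light libraries.

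Replicate 3 differed from replicates 1 and 2 in whole classes of transcripts. The nuclear light-harvesting antenna genes took 14.1%, 9.45% and 1.45% of the counts in high-light replicates 1, 2 and 3, against 14.9% to 17.5% in growth light. Genes encoded by the plastid genome took 0.0442%, 0.869% and 6.52% of the high-light counts, against 0.781%, 0.946% and 1.62% of the growth-light counts, so that replicate 1 lay below and replicate 3 above all growth-light libraries. A high plastid share in replicate 3 was not particular to wild-type high light. Replicate 3 was at 7.30% in hy5 high light, 4.15% in hy5 growth light and 3.91% in the 35S:HY5K87K-GFP/hy5 line in growth light, where replicates 1 and 2 of those groups ran from 0.348% to 1.19%, and the other 2 HY5-GFP lines ran from 0.104% to 1.41% with replicate 3 at 0.187% and 0.125%. Small heat shock proteins took 3.67%, 2.89% and 2.72% of the high-light counts, against 0.0113% to 0.0117% in growth light. These are shares of raw totals, before TMM scaling. By the share of small heat shock proteins the 3 high-light libraries lay closer to each other than to growth light. Single members of that class differed between them, as given below. By the antenna share, replicate 1 lay closer to growth light than to replicate 3. By the plastid share, replicate 2 lay within the growth-light range.

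Gene length moved with these differences. Of the 18011 nuclear protein-coding genes tested, the shortest of 4 length classes (42 to 1315 bases) had a median difference from the growth-light mean of 0.46, 0.05 and -0.48 on the log2 scale in high-light replicates 1, 2 and 3. The longest class (2416 to 16614 bases) had -0.54, -0.06 and 0.51. Replicates 1 and 3 therefore leaned in opposite directions by length, while replicate 2 showed almost no lean. The share of genes that passed the test was between 8.424% and 9.627% for higher and between 4.979% and 7.692% for lower genes in every class. The part of length in single genes' values was not tested.

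**Figure D2:**
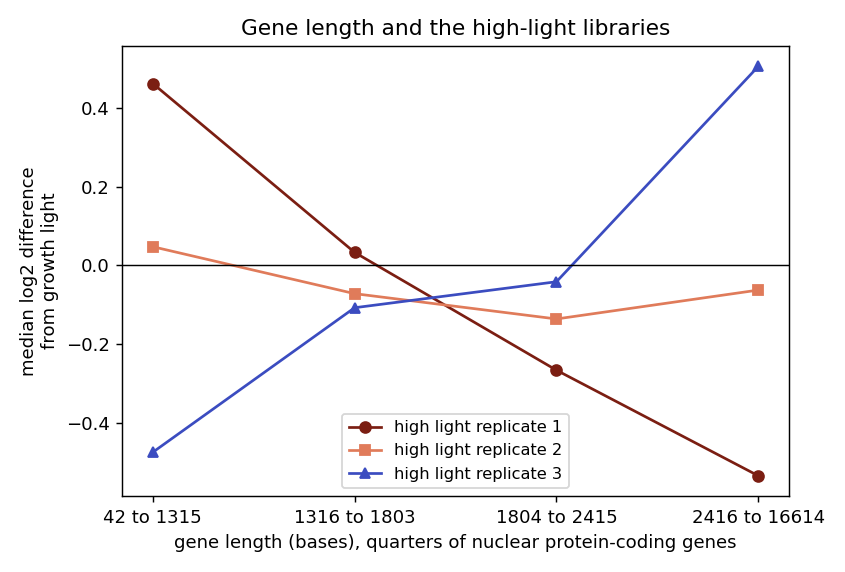
Median log2 difference of each high-light library from the growth-light mean, for nuclear protein-coding genes in 4 classes of gene length (bases, short to long). The line of replicate 1 runs from 0.46 down to -0.54 and that of replicate 3 from -0.48 up to 0.51, while replicate 2 stays between -0.14 and 0.05.

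Replicate 3 shared the direction of the others for most of the genes they called, and fewer of these also changed by at least 1 on the log2 scale. Genes were called from high-light and growth-light replicates 1 and 2 alone and then read in replicate 3, which shares no library with them. Of 3521 genes called higher in this way, 70.3% were also higher in high-light than in growth-light replicate 3, against 49.9% of all genes tested, and 42.6% were higher by at least 1 on the log2 scale, against 20.96% of all genes. Of 2967 called lower, 79.2% were lower in replicate 3, against 50.1% of all genes, and 54.1% by at least 1, against 26.4% of all genes. Their median difference in replicate 3 was 0.74 for the higher genes, where the fit gave 1.56, and -1.17 for the lower genes, where the fit gave -1.85. The genes were selected on that fit, which can enlarge its values, and the difference in replicate 3 uses log2 CPM instead of the fit. The medians therefore do not measure how far replicate 3 fell short. In the opposite direction by at least 1 lay 492 of the higher genes (14.0%) and 148 of the lower genes (4.99%). With replicate 1 or replicate 2 held out instead, the 4 remaining libraries gave 0 calls by edgeR, with 2097 higher and 1594 lower genes at an unadjusted p under 0.05 without replicate 1, and 1691 and 1455 without replicate 2. The difference of each numbered pair correlated across genes at Pearson r = 0.795 between pairs 1 and 2, 0.436 between pairs 1 and 3 and 0.494 between pairs 2 and 3.

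The 6 genes farthest below the other 2 high-light libraries in replicate 3 included the antenna gene LHCB1.4, with 10700, 5763 and 18.3 CPM in high-light replicates 1, 2 and 3, against 5842, 3849 and 5012 CPM in growth light. EMB2296, which encodes a ribosomal protein of the large subunit, had 1293, 717 and 2.83 CPM in high light and 414, 426 and 424 CPM in growth light. The others were RALF23, a peptide signal that restrains growth, FBA5, a fructose-bisphosphate aldolase, CYP86A2, a fatty acid hydroxylase of cutin synthesis, and PDX1L4. In each, replicate 3 was below all growth-light libraries, while replicate 1 was above all of them. The 6 genes farthest above were 4 plastid genes (psbA, psbF, psbL and petD), the telomere-repeat-binding-like gene TRFL8 and the co-chaperone gene BAG6. BAG6 had 85.2, 79.2 and 3725 CPM in high light and 0.451, 0.820 and 0.792 CPM in growth light, so that it was high in all 3 high-light libraries but most in replicate 3.

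In the test over all 6 libraries, 2906 of the 18425 genes (15.8%) passed a Benjamini-Hochberg adjusted p of 0.05 in edgeR's quasi-likelihood test. Of these, 1713 genes (9.3% of those tested) were higher in high light and 1193 (6.47%) were lower. For 1711 of the 1713 and for all 1193, the 3 high-light libraries lay on one side of all 3 growth-light libraries, a separation that 20.3% of all genes tested showed upward and 22.7% downward. The changes were large, with 1666 of the higher and 1176 of the lower genes past 1 on the log2 scale, and 438 and 287 past 3. Among the higher genes the median difference was 2.05, 1.93 and 1.84 in high-light replicates 1, 2 and 3, and among the lower genes it was -2.16, -1.995 and -2.22. Since the calls used all 3 libraries, these medians describe the called genes and test nothing.

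Without high-light replicate 3, 8998 of the same 18425 genes passed (48.8%), 4626 of them higher (25.1%) and 4372 lower (23.7%), and all 2906 were among them. Of those 4626 and 4372 genes, 1462 (31.6%) and 1112 (25.4%) had replicate 3 at the growth-light mean or on its opposite side. Genes with replicate 3 on the called side of that mean, but within the growth-light range, are not among them. Leaving out 1 growth-light library reduced the calls to 179, 209 and 197 without replicates 1, 2 and 3, and leaving out high-light replicate 2 reduced them to 1716. Counts of the gene groups below are therefore given with those without replicate 3, over the same genes, and without other libraries, where the filter was applied anew, if these move by over 1.5 times. Counts of the main test are to be read against the 9.3% of all genes called higher and 6.47% called lower. Those without high-light replicate 3 are to be read against 25.1% and 23.7%. These shares do not apply to the fits without another library, for which the share by direction is not given for each. Those counts therefore show only how the calls moved. In bulk RNA, fewer cells of a type and less RNA per cell cannot be told apart, here and in every result below.

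**Figure D3:**
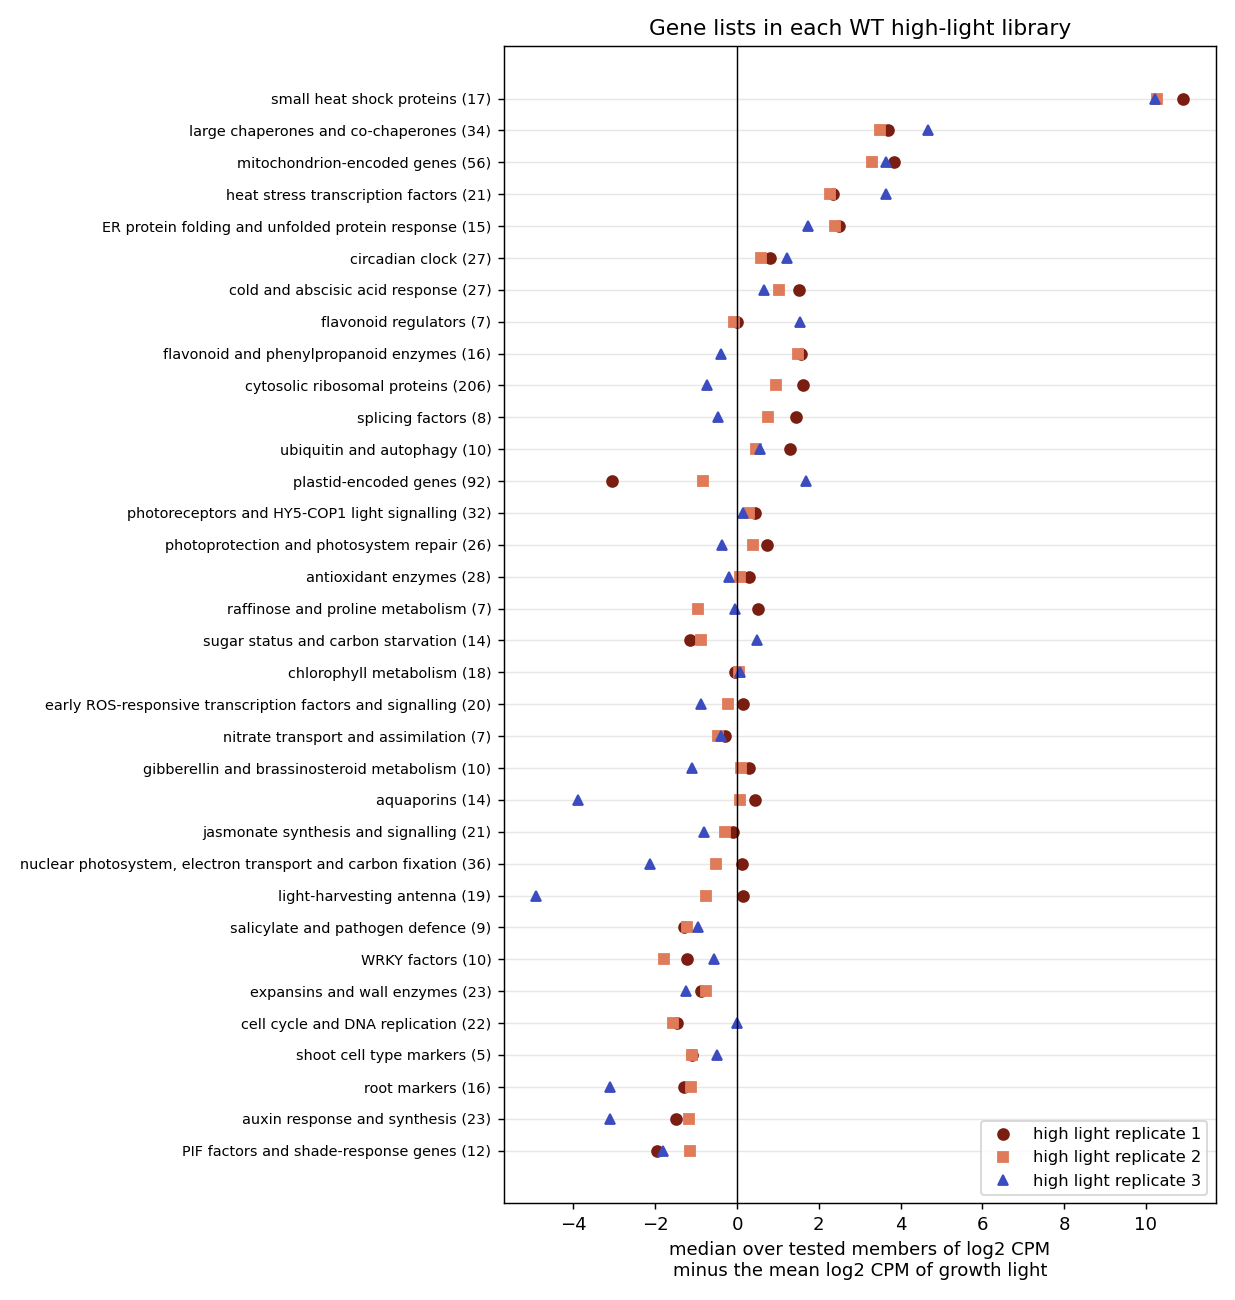
Median log2 difference of each high-light library from the growth-light mean for every gene list, with 1 point per library and the number of genes tested beside each name. Small heat shock proteins stand at 10.9, 10.3 and 10.2 in replicates 1, 2 and 3, while the antenna list spreads over 0.14, -0.75 and -4.91.

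Small heat shock proteins showed the largest rise of any list. Of 17 tested, 15 rose and 0 fell, with a median log2 fold change of 10.98, where the median over all genes tested was 0.07. HSP22, an endoplasmic reticulum (ER) form (AT4G10250, chromosome 4, 6370338 to 6371372), had 1918, 1473 and 2826 CPM in high light and 0 counts in each growth-light library, which makes it at least 38814-fold higher when 3 counts are set for the growth-light libraries together. HSP21, which protects photosystem proteins in the chloroplast, had 721, 556 and 1327 CPM in high light and also 0 counts in growth light, at least 16872-fold higher. The mitochondrial HSP23.6 had 11464, 5352 and 2172 CPM in high light and 0.282, 0.478 and 0.528 CPM in growth light (log2 fold change 13.82 ± 1.16, SE; adjusted p = 0.0028). These 3 genes, whose products work in 3 different organelles, were higher in every high-light library than in any growth-light library.

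Several cytosolic forms were also abundant. HSP18.2, of class I, had 6274, 5406 and 2173 CPM in high light and 0.958, 0.751 and 0.633 CPM in growth light (log2 12.52 ± 0.88, adjusted p = 0.00233). HSP17.6B, also of class I, had 3803, 3659 and 2704 CPM in high light and 1.803, 2.46 and 2.27 CPM in growth light. HSP17.7, of class II, had 2164, 1138 and 1684 CPM in high light and 1.24, 0.615 and 1.32 CPM in growth light. In these 3 genes the lowest high-light library was far above the highest growth-light library. HSP26.5 was at 138, 68.2 and 716 CPM in high light and 0.0563, 0 and 0.0528 CPM in growth light, a ratio of 10565 with a 95% counting interval of 2924 to 87245, and its highest library was replicate 3. HSP15.7, of the peroxisome, had 159, 66.0 and 629.6 CPM in high light and 0.451, 0.478 and 0.264 CPM in growth light, again highest in replicate 3. HSP17.8 and HSP17.4 had the reverse order, with 10557, 3117 and 1065 CPM for HSP17.8 and 1079, 739 and 194 CPM for HSP17.4 in high light.

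The 2 members that did not pass were HSP14.7, at 1.91, 1.70 and 0.955 CPM in high light and 0.282, 0.410 and 0.528 CPM in growth light (adjusted p = 0.0739), and HSP15.4, at 14.9, 25.3 and 41.9 CPM in high light and 29.0, 32.2 and 32.1 CPM in growth light. HSP15.4 overlapped between the groups. The count was 16 of 17 without high-light replicate 3, and 12, 13 and 12 without growth-light replicates 1, 2 and 3.

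**Figure D4:**
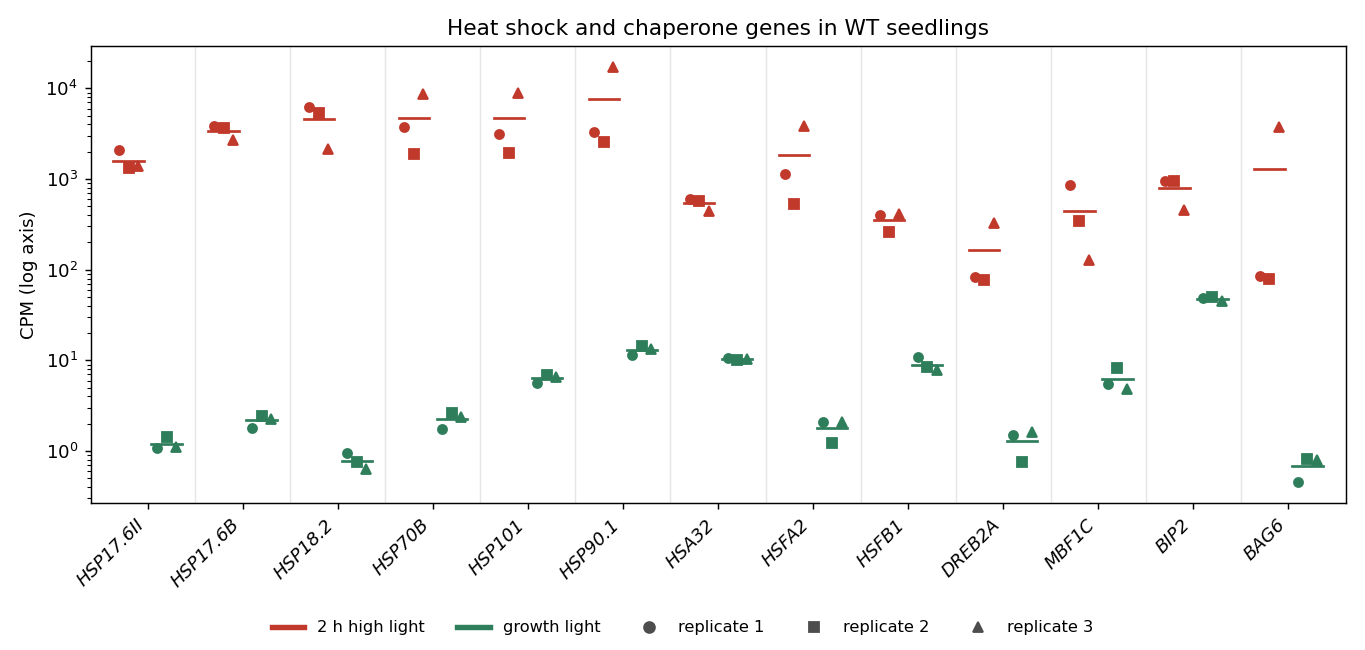
CPM (log10 axis) of heat shock protein, chaperone and regulator genes in the 3 high-light libraries, left of the 3 growth-light libraries, with 1 point per library and a line at the mean of each group. HSP17.6II lies between 1324 and 2075 CPM in high light and between 1.07 and 1.43 CPM in growth light, and HSFA2, HSP101 and HSP90.1 are highest in high-light replicate 3.

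Promoters of these genes were read from the RefSeq TAIR10.1 genome, in a window of 250 bases before to 50 bases after each annotated start, on both strands. The full heat shock element, taken as 3 alternating units of GAA and TTC with NN between neighbours, stood in 2.397% of the promoters of higher genes (40 of 1669), in 0.08382% of those of lower genes (1 of 1193) and in 0.5691% of all promoters of genes tested (104 of 18275). The windows of 4 of the 34 large chaperones and co-chaperones held it, but 0 of them did so in the 250 upstream bases. It was found in 2 of the 17 small heat shock protein promoters, HSP17.4 and HSP17.6C, and in 4 of 21 of the heat stress transcription factors, DREB2A, HSFA2, HSFA7A and HSFA7B. The shorter pair, GAANNTTC or TTCNNGAA, which overlaps the full element, stood in 22.95% of higher, 17.52% of lower and 18.73% of all promoters, and in 9 of the 17. HSP22 had 0 pairs in the window, which says only that these letters are not there. Below are 250 bases upstream of HSP17.4 (chr3:16984868-16985117, minus strand), which holds 2 full elements, and of APX2 (chr3:2955906-2956155, plus strand), which encodes an ascorbate peroxidase and holds 2 pairs, each 5′ to 3′ and ending at the annotated start. They are shown because they place the motif beside a gene with one of the largest rises, and capitals mark the pairs and the full elements that pairs build.
HSP17.4: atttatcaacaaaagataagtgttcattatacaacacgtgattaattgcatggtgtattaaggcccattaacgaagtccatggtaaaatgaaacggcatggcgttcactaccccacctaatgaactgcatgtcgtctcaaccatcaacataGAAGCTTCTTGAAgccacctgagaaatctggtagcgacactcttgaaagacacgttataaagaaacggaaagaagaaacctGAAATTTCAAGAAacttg
APX2: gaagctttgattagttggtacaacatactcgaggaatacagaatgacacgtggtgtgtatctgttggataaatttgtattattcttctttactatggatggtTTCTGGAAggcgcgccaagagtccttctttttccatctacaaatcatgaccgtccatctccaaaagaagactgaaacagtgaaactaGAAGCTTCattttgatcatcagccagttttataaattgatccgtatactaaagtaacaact

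Large chaperones and their partners rose almost as a body. Of 34 tested, 31 rose and 0 fell, with a median log2 fold change of 3.997 against 0.07 over all genes. The disaggregase HSP101 had 3174, 1934 and 8998 CPM in high light and 5.69, 6.97 and 6.55 CPM in growth light (log2 9.52 ± 0.94, adjusted p = 0.00364). The cytosolic HSP90.1 had 3309.6, 2545 and 17341 CPM in high light and 11.6, 14.3 and 13.3 CPM in growth light (log2 9.21 ± 1.16, adjusted p = 0.00624). The abundant cytosolic HSP70-4 had 11267, 7241 and 10235 CPM in high light and 93.1, 91.6 and 97.5 CPM in growth light. Those 3 were far apart between the groups, and HSP101 and HSP90.1 were highest in replicate 3. The mitochondrial chaperonin HSP60 had 409, 363 and 613 CPM in high light and 27.3, 30.5 and 28.2 CPM in growth light (log2 4.01 ± 0.37). The plastid disaggregase CLPB3 had 525, 542 and 3155 CPM in high light and 45.7, 61.4 and 51.2 CPM in growth light, and the mitochondrial CLPB4 had 82.9, 80.5 and 722 CPM in high light and 5.80, 7.24 and 6.44 CPM in growth light. In both, replicates 1 and 2 lay close together and replicate 3 was several times higher.

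Co-chaperones followed. ROF2, an FK506-binding partner of HSP90, had 980.4, 1064 and 3915 CPM in high light and 5.75, 3.07 and 4.65 CPM in growth light (log2 8.79 ± 0.91, adjusted p = 0.00375). FES1A, a nucleotide exchange factor of HSP70, had 1497, 730 and 3301 CPM in high light and 11.3, 18.3 and 11.0 CPM in growth light. HOP3, which bridges HSP70 and HSP90, had 318, 292 and 3470 CPM in high light and 5.41, 7.58 and 6.33 CPM in growth light. HOP3 and BAG6 owed much of their size to replicate 3, since their log2 fold changes were 7.72 and 10.87 with it and 5.57 and 6.90 without it, and both passed either way. The constitutive HSP70-1, at 9969, 6948 and 1801 CPM in high light and 1312, 1373 and 1412 CPM in growth light, and the plastid chaperonin genes CPN20 and CPN60B1 did not pass (adjusted p = 0.0807, 0.0959 and 0.411). In all, 33 of 34 rose without high-light replicate 3, and 7, 9 and 7 without growth-light replicates 1, 2 and 3.

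Among heat stress transcription factors and their partners, 14 of 21 rose and 0 fell, with a median log2 fold change of 3.14. HSFA2, the factor that extends the heat response, had 1142, 534 and 3822 CPM in high light and 2.08, 1.23 and 2.11 CPM in growth light (log2 9.98 ± 1.08, adjusted p = 0.00415). HSFB1, which represses heat shock genes once the response has begun, had 402, 262 and 408 CPM in high light and 10.9, 8.40 and 7.76 CPM in growth light (log2 5.31 ± 0.39, adjusted p = 0.00233). HSFA3, a target of DREB2A, had 149, 76.5 and 152 CPM in high light and 2.76, 3.28 and 4.22 CPM in growth light. None of these groups overlapped, and HSFB1 and HSFA3 had replicate 3 next to replicate 1. DREB2A, a factor of the drought and heat responses, had 84.0, 77.0 and 331 CPM in high light and 1.52, 0.751 and 1.64 CPM in growth light. MBF1C, a coactivator needed for heat tolerance, had 855, 341 and 127 CPM in high light and 5.52, 8.26 and 4.80 CPM in growth light, the only one of these with replicate 3 lowest. HSFA1D and HSFA1E, the constitutive activators that start the response, rose by 1.51 and 3.14 on the log2 scale, whereas HSFA1A and HSFA1B overlapped between the groups (adjusted p = 0.881 and 0.822). HSFA6B did not pass the filter, with counts of 1, 4 and 226 in high light and 0, 1 and 0 in growth light. The list's count was 14 without high-light replicate 3 and 6, 6 and 7 without growth-light replicates 1, 2 and 3.

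The smallest adjusted p of the whole table, 0.00134, belonged to PMZ (AT3G28210, chromosome 3, 10520443 to 10521796), which encodes the AN1 zinc finger protein SAP12 of stress responses. It had 33.1, 32.1 and 39.8 CPM in high light and 0.225, 0.205 and 0.211 CPM in growth light (log2 7.31 ± 0.33, SE). Its high-light libraries differed by little, replicate 3 included. Other genes near the top of that ranking were separated as clearly. HSP70T-2, of the HSP70 family, had 1391, 688 and 1263 CPM in high light and 8.68, 7.58 and 9.71 CPM in growth light. TIN1, named for its induction by the ER stressor tunicamycin, had 391, 291 and 460.2 CPM in high light and 8.90, 10.04 and 8.02 CPM in growth light. EGY3, a chloroplast metalloprotease homologue, had 903, 481 and 1061 CPM in high light and 7.55, 9.97 and 6.97 CPM in growth light. AtCDC48B, of the segregase family that extracts ubiquitinated proteins, had 589, 385 and 411 CPM in high light and 14.5, 9.49 and 15.2 CPM in growth light. These genes were outside the lists and are named for their rank by p.

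Protein folding genes of the ER rose as well. Of 15 tested, 10 rose and 0 fell, with a median log2 fold change of 2.40. BIP2, the ER HSP70, had 944, 962 and 461 CPM in high light and 48.5, 50.5 and 45.2 CPM in growth light (log2 4.04 ± 0.45, adjusted p = 0.00431). ERDJ3A, a J-domain partner of BIP, had 191, 131 and 831 CPM in high light and 2.37, 1.91 and 2.11 CPM in growth light. BZIP28, a membrane-bound factor that activates ER stress genes, had 190.1, 136 and 199.9 CPM in high light and 27.6, 29.4 and 28.1 CPM in growth light (log2 2.63 ± 0.29). All 3 were separated between the groups, BIP2 with its lowest high-light value in replicate 3. SHD, the ER HSP90, CNX1, a calnexin, and the calreticulin CRT1B rose by 3.15, 3.22 and 1.86 on the log2 scale. BZIP60, the factor whose mRNA is spliced in ER stress, had 123, 57.8 and 54.3 CPM in high light and 33.6, 32.2 and 30.4 CPM in growth light without passing (adjusted p = 0.0616), and a count per gene does not tell its spliced form. The ER list had 14 higher and 1 lower without high-light replicate 3, and 0, 1 and 1 higher without growth-light replicates 1, 2 and 3.

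Protein removal and RNA splicing genes moved in part. Of 10 ubiquitin and autophagy genes, 3 rose and 0 fell. PUB48, a U-box ubiquitin ligase, had 31.4, 31.1 and 62.6 CPM in high light and 0.676, 0.478 and 0.475 CPM in growth light (log2 6.24 ± 0.46, adjusted p = 0.00233). NBR1, an autophagy receptor for protein aggregates, had 522, 434 and 265 CPM in high light and 142, 159.9 and 159 CPM in growth light. The polyubiquitin gene UBQ10, often used as a standard, had 4771, 2688 and 454 CPM in high light and 1846, 1884 and 1970 CPM in growth light, below growth light only in replicate 3. Of 8 splicing factors, 2 rose. SR45A, a splicing factor that heat and high light induce, had 796, 377 and 448 CPM in high light and 30.3, 26.2 and 30.6 CPM in growth light (log2 4.22 ± 0.44), and SR30 had 661, 513 and 244 CPM in high light and 93.0, 84.3 and 89.2 CPM in growth light. Of the 10 ubiquitin and autophagy genes 6 rose and 1 fell, and of the 8 splicing factors 7 rose, without high-light replicate 3. Leaving out any 1 growth-light library, or high-light replicate 2, left 1 gene of each list higher.

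Genes of reactive oxygen signalling split in both directions, with 6 of 20 higher and 5 lower and a median of -0.07. ANAC013, a membrane-bound factor of mitochondrial retrograde signalling, had 105, 82.1 and 141 CPM in high light and 5.30, 8.40 and 4.38 CPM in growth light (log2 4.18 ± 0.40, adjusted p = 0.00344). Its target AOX1A, the alternative oxidase, had 345, 237 and 239 CPM in high light and 53.0, 59.6 and 55.3 CPM in growth light (log2 2.29 ± 0.31). The zinc finger repressors ZAT7, ZAT6 and ZAT12 rose by 2.50, 2.50 and 2.14 on the log2 scale. In contrast, ZAT10, another zinc finger gene, overlapped between the groups at 66.2, 32.2 and 10.04 CPM in high light and 40.3, 36.2 and 39.1 CPM in growth light. The ethylene response factors ERF5, ERF6 and ERF104 fell by 2.55, 2.12 and 1.72. ERF5 had 3.01, 3.64 and 3.44 CPM in high light and 20.1, 20.6 and 18.4 CPM in growth light. RBOHD, the NADPH oxidase of apoplastic bursts, fell to 4.48, 9.07 and 6.99 CPM in high light, against 13.9, 20.97 and 17.2 CPM in growth light. The split was 7 and 7 without high-light replicate 3. Leaving out any 1 growth-light library left 1 higher and 1 lower, and without high-light replicate 2, 4 rose and 2 fell.

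WRKY factors, regulators of defence, were likewise split, with 2 of 10 higher and 4 lower. WRKY22 had 2.87, 1.78 and 0.305 CPM in high light and 33.5, 28.4 and 28.3 CPM in growth light (log2 -4.23 ± 0.73, adjusted p = 0.0133). WRKY25, which also contributes to heat tolerance, had 20.6, 20.1 and 24.1 CPM in high light and 7.10, 9.08 and 7.81 CPM in growth light. Of 9 salicylate and pathogen defence genes, 0 passed in either direction, with 2 at an adjusted p of 0.0517 and 0.0525 (FLS2 and PR5), and 1 rose and 4 fell without high-light replicate 3, and 1 fell without high-light replicate 1. Of 21 jasmonate genes, the repressors JAZ1 and JAZ10 rose by 1.52 and 1.82 and JAZ9 fell by 1.25. These jasmonate calls are shares near the 9.3% of all genes called higher and the 6.47% called lower. Taken without high-light replicate 3, 3 WRKY genes rose and 7 fell, and 6 jasmonate genes rose and 6 fell. In both lists 0 genes passed without any 1 growth-light library. With high-light replicate 1 left out, 1 WRKY gene rose and 2 fell and 2 jasmonate genes rose. With high-light replicate 2 left out, 2 WRKY genes and 1 jasmonate gene rose and 0 fell.

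Of 28 antioxidant enzymes, 2 rose and 0 fell, a share near the 9.3% of all genes called higher, with a median of 0.19. APX2, a cytosolic ascorbate peroxidase known as a high-light marker, had 421, 246 and 85.0 CPM in high light and 0.0563, 0 and 0.106 CPM in growth light, a ratio of 3606 with a 95% counting interval of 1234 to 17488. GR1, the cytosolic glutathione reductase, had 143, 156 and 100.4 CPM in high light and 62.4, 66.7 and 60.2 CPM in growth light (log2 1.08 ± 0.29, adjusted p = 0.0448). APX1, the main cytosolic ascorbate peroxidase, split by library. It had 4808, 4490.4 and 69.7 CPM in high light and 882, 868 and 903 CPM in growth light, above growth light in replicates 1 and 2 and below it in replicate 3, and it passed only without replicate 3 (log2 2.40, adjusted p = 3.4e-05, against 1.82 ± 1.19 and adjusted p = 0.347 with it). The chloroplast peroxiredoxin genes 2CPA and 2CPB overlapped between the groups. The list had 10 higher and 4 lower without high-light replicate 3, where 25.1% and 23.7% of all genes were called, and 1 higher when any other single library was left out.

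HY5 itself (AT5G11260, chromosome 5) had 93.7, 44.9 and 36.2 CPM in high light and 8.45, 6.01 and 7.76 CPM in growth light. It was higher in all 3 high-light libraries, most in replicate 1 (log2 2.97 ± 0.43, adjusted p = 0.00866). Of the 32 photoreceptor and HY5-COP1 signalling genes, 3 rose and 2 fell, shares near those of all genes, with a median of 0.32. BBX22, a B-box partner that works with HY5, had 179, 132 and 178 CPM in high light and 30.9, 26.501 and 27.2 CPM in growth light (log2 2.53 ± 0.28, adjusted p = 0.00435). CO, the photoperiod regulator of flowering, had 1.47, 1.13 and 0.993 CPM in high light and 0, 0 and 0.106 CPM in growth light, a ratio of 29.5 with a 95% counting interval of 7.83 to 249. BBX20, another B-box gene, had 1.102, 0.809 and 1.03 CPM in high light and 5.13, 5.12 and 4.65 CPM in growth light, and BBX16 fell by 1.05. HYH, the nearest homologue of HY5, was higher in all 3 high-light libraries, at 29.8, 22.7 and 11.6 CPM in high light and 9.80, 7.79 and 7.18 CPM in growth light, but missed the threshold (adjusted p = 0.0576). COP1, the ubiquitin ligase that degrades HY5, overlapped at 19.3, 31.2 and 49.5 CPM in high light and 18.1, 20.2 and 21.5 CPM in growth light. The signalling list had 15 higher and 8 lower without high-light replicate 3. Leaving out any 1 growth-light library left 0, and without high-light replicates 1 and 2, 3 rose with 3 lower and 2 rose with 1 lower.

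**Figure D5:**
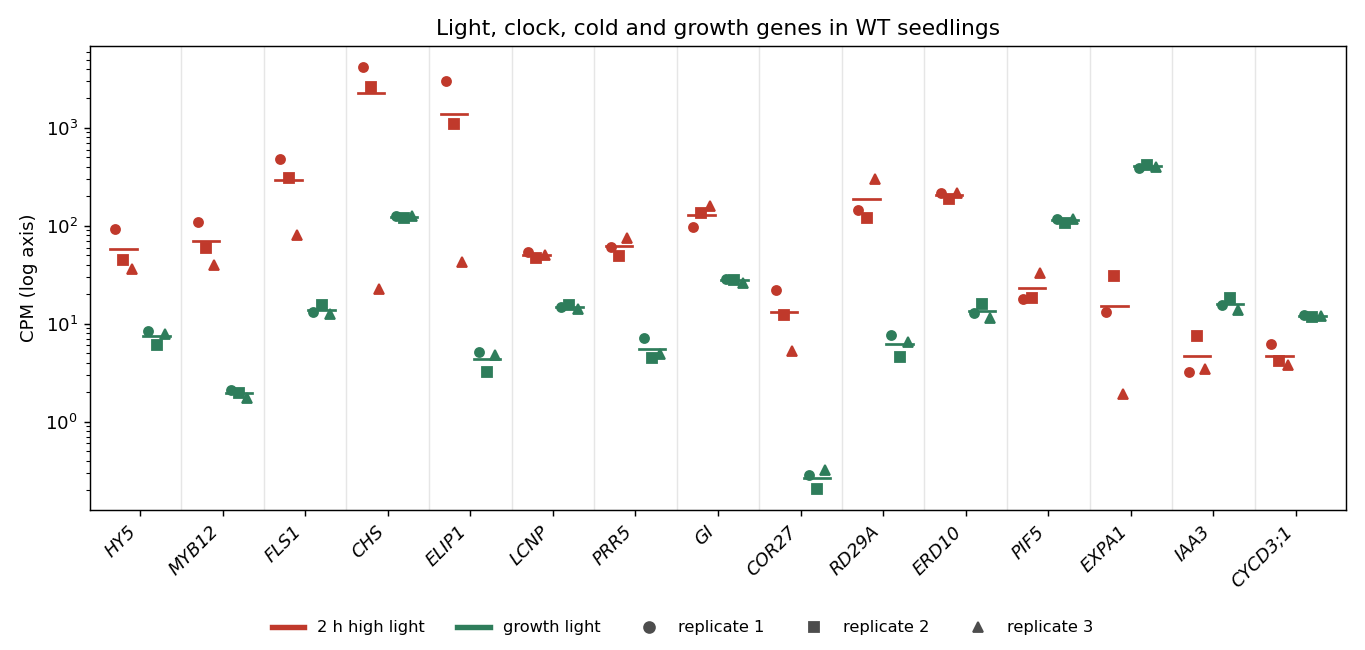
CPM (log10 axis) of light signalling, flavonol, photoprotection, clock, cold-response and growth genes in the 3 high-light libraries, left of the 3 growth-light libraries, with 1 point per library and a line at the mean of each group. HY5 lies between 36.2 and 93.7 CPM in high light and between 6.01 and 8.45 CPM in growth light, and CHS has replicate 3 at 22.8 CPM, below its other high-light libraries and below growth light.

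Flavonol genes, which HY5 is known to control, rose in part. MYB12, the activator of flavonol synthesis, had 109.7, 58.9 and 40.3 CPM in high light and 2.08, 1.98 and 1.74 CPM in growth light (log2 5.16 ± 0.47, adjusted p = 0.00309). MYBL2, a repressor of anthocyanin genes, had 20.9, 20.3 and 41.9 CPM in high light and 115, 134 and 128 CPM in growth light (log2 -2.18 ± 0.37). These were the 2 of 7 tested regulators that passed, 1 in each direction. Without replicate 3, 2 regulators rose and 2 fell and their median was -0.04, against 1.19 with it, and without any 1 growth-light library 1 rose and 0 fell. Of 16 enzymes, FLS1, 4CL3 and UGT78D2 rose, and 4CL1 and 4CL2, which feed the lignin branch, fell. FLS1, flavonol synthase, had 485, 311 and 81.1 CPM in high light and 13.0, 15.44 and 12.5 CPM in growth light (log2 4.42 ± 0.68, adjusted p = 0.00991). 4CL3, the ligase of the flavonoid branch, had 33.9, 38.0 and 15.35 CPM in high light and 6.48, 7.31 and 5.17 CPM in growth light.

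The entry enzymes split by library. CHS, chalcone synthase, had 4193, 2624 and 22.8 CPM in high light and 126, 121 and 126 CPM in growth light. Replicates 1 and 2 were far above the growth-light level and replicate 3 was below it, and CHS passed only without replicate 3 (adjusted p = 0.1 with it and 5.9e-06 without it). The chalcone isomerase gene CHI, the enhancer CHIL and F3'H also had replicate 3 within or below the growth-light range, at 15.9, 15.3 and 2.41 CPM against 15.72, 17.2 and 14.8 CPM, 16.8, 12.7 and 16.8 CPM and 4.73, 2.80 and 4.22 CPM in growth light. The late anthocyanin genes DFR and LDOX were low throughout, at most 2.80 CPM and 1.79 CPM in any library. The enzyme list had medians of 1.56, 1.48 and -0.39 in high-light replicates 1, 2 and 3, and 10 rose and 2 fell without replicate 3. Leaving out any 1 growth-light library left 0 enzymes, and without high-light replicate 2, 1 rose and 2 fell.

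Of 26 photoprotection genes, 3 rose and 0 fell, a share near the 9.3% of all genes called higher, with a median of 0.32. LCNP, a plastid lipocalin of sustained energy quenching, had 53.6, 46.5 and 49.99 CPM in high light and 14.9, 15.5 and 14.0 CPM in growth light (log2 1.75 ± 0.23, adjusted p = 0.00683). GPT2, a glucose-6-phosphate translocator tied to light acclimation, had 129, 57.2 and 21.5 CPM in high light and 0.451, 0.0683 and 0.897 CPM in growth light. ELIP1, an early light-induced protein that binds free chlorophyll, had 2992, 1107 and 42.6 CPM in high light and 5.13, 3.21 and 4.80 CPM in growth light (log2 8.30 ± 1.56, adjusted p = 0.0171). LCNP was even across the high-light libraries, whereas ELIP1 was high in all 3 but far lower in replicate 3 than in replicate 2. Its sister ELIP2 was below growth light in replicate 3 alone, with 113, 82.6 and 0.955 CPM in high light and 7.89, 7.58 and 5.91 CPM in growth light (adjusted p = 0.14, and 8.4e-06 without replicate 3). FTSH2, the thylakoid protease subunit of photosystem II repair, had 1014, 1283 and 1024 CPM in high light and 583, 633 and 622 CPM in growth light, separated but short of the threshold (adjusted p = 0.156). PSBS, the sensor of energy-dependent quenching, overlapped at 2799.5, 2258 and 403 CPM in high light and 2548, 2264 and 2411 CPM in growth light. Photoprotection calls were 13 higher and 3 lower without high-light replicate 3, 2 higher without high-light replicate 2 and 0 without any 1 growth-light library.

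Genes of the photosynthetic apparatus did not move as a group beyond the spread between libraries. Of 19 antenna genes, 1 fell and 0 rose. LHCB2.3 fell to 474, 93.8 and 87.6 CPM in high light, against 2158, 1893 and 2034 CPM in growth light (log2 -3.21 ± 0.78, adjusted p = 0.036). LHCB1.3, the most abundant antenna transcript, had 62860, 21481 and 275 CPM in high light and 36062, 27388 and 31895 CPM in growth light. Its replicate 1 was above growth light, replicate 2 below and replicate 3 far below both. Of 36 nuclear photosystem, electron transport and carbon fixation genes, 0 passed (the lowest adjusted p was 0.0912, for PRK), and 1 rose and 4 fell without replicate 3. PRK, phosphoribulokinase of the Calvin cycle, had 515, 602 and 579.9 CPM in high light and 1104, 1248 and 1179 CPM in growth light, separated with an even high-light group. Of 18 chlorophyll metabolism genes, CAO, which makes chlorophyll b, fell to 64.4, 93.0 and 146 CPM in high light, against 275, 304 and 297 CPM in growth light (adjusted p = 0.037). Without replicate 3, 3 antenna genes fell, and 3 chlorophyll genes rose and 5 fell. The single calls of LHCB2.3 and CAO were lost without any 1 growth-light library and without high-light replicate 2, and that of CAO also without high-light replicate 1.

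Genes encoded by the plastid had 0 calls among 92 tested, with median differences of -3.05, -0.83 and 1.68 in high-light replicates 1, 2 and 3. psbA, for the D1 protein that high light damages, had 117, 4445 and 27608 CPM in high light and 4054, 4677 and 7954 CPM in growth light. psbD, for the D2 protein, had 103, 960.3 and 6538 CPM in high light and 175, 197 and 358 CPM in growth light, and was above growth light in replicates 2 and 3. Plastid transcripts largely lack poly-A tails, and the libraries were selected with poly-T. Of the 92, 36 fell and 0 rose without high-light replicate 3, and 1 rose without high-light replicate 1.

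Genes encoded by the mitochondrion were higher in high light. Of 56 tested, 44 rose and 0 fell, with medians of 3.84, 3.29 and 3.64 in high-light replicates 1, 2 and 3. cox1, a subunit of cytochrome c oxidase, had 146, 100.3 and 228 CPM in high light and 9.18, 12.3 and 19.5 CPM in growth light (log2 3.53 ± 0.47, adjusted p = 0.00697). rps3, a mitochondrial ribosomal protein, had 46.4, 36.0 and 76.3 CPM in high light and 2.65, 3.76 and 3.33 CPM in growth light (log2 4.03 ± 0.39, adjusted p = 0.00348). nad7, of complex I, had 10.1, 14.1 and 48.4 CPM in high light and 1.75, 1.43 and 1.53 CPM in growth light. All 3 were separated between the groups, with replicate 3 highest. ATMG01390 was high in replicate 1 alone, at 1506, 8.58 and 0.764 CPM in high light and 1.69, 2.39 and 2.06 CPM in growth light, and did not pass. Chromosome 2 carries near-identical copies of mitochondrial genes, so that the counting could split their reads, and the share of poly-A-tailed organelle RNA in the libraries was not tested. Of the 56, 52 rose without high-light replicate 3, and 4, 4 and 13 without growth-light replicates 1, 2 and 3.

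Cytosolic ribosomal protein genes split by library. Of 206 tested, 10 rose and 0 fell, a share of higher genes below the 9.3% of all genes. The median difference was 1.60, 0.94 and -0.73 in high-light replicates 1, 2 and 3. Without replicate 3, 185 of the 206 rose and 0 fell, where 25.1% and 23.7% of all genes were called. RPL3B had 131, 114 and 21.9 CPM in high light and 10.1, 9.97 and 7.23 CPM in growth light (log2 3.29 ± 0.66, adjusted p = 0.0207), above growth light in all 3 libraries. Many of these genes have near-identical paralogs, between which the counting could split reads. The count was 0 without any 1 growth-light library, and 5 and 1 without high-light replicates 1 and 2.

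Clock genes rose in 10 of 27 members, with 1 lower and a median of 1.55. That median was 0.84 without high-light replicate 3, and the median differences were 0.80, 0.58 and 1.23 in high-light replicates 1, 2 and 3. PRR5, a repressor of the afternoon, had 61.1, 49.0 and 75.1 CPM in high light and 7.10, 4.44 and 4.86 CPM in growth light (log2 3.50 ± 0.33, adjusted p = 0.00322). GI, which stabilises clock proteins and controls flowering, had 96.7, 134 and 159 CPM in high light and 28.4, 28.2 and 26.3 CPM in growth light (log2 2.23 ± 0.29). FKF1, a blue-light receptor of the flowering pathway, had 38.7, 37.9 and 9.93 CPM in high light and 1.86, 2.12 and 2.32 CPM in growth light. LUX and ELF3, of the evening complex, had 149.7, 116 and 50.7 CPM (LUX) and 14.2, 24.8 and 32.2 CPM (ELF3) in high light, against 17.9, 17.1 and 15.6 CPM and 7.55, 7.79 and 8.97 CPM in growth light. Each of these was separated between the groups. TOC1 and the cold- and light-regulated COR27 and COR28 rose by 1.805, 5.56 and 3.58 on the log2 scale. RVE8, an activator of evening genes, fell to 8.15, 7.04 and 11.9 CPM in high light, against 21.6, 20.8 and 19.9 CPM in growth light (log2 -1.20 ± 0.29, adjusted p = 0.0348).

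Morning genes depended on replicate 3. CCA1 had 14.69, 17.64 and 81.6 CPM in high light and 34.0, 34.3 and 39.2 CPM in growth light, lower in replicates 1 and 2 and higher in replicate 3. LHY, its partner, had 1.76, 0 and 7.14 CPM in high light and 11.7, 16.3 and 13.4 CPM in growth light, and LNK2 had 28.0, 36.7 and 202 CPM in high light and 319, 258 and 291 CPM in growth light. Both were lower in all high-light libraries, least in replicate 3, and passed only without it (LHY -3.91, LNK2 -3.16 on the log2 scale). PRR9 had 11.2, 18.6 and 99.3 CPM in high light and 9.86, 9.70 and 10.51 CPM in growth light, high in replicate 3. Without replicate 3, 14 clock genes rose and 8 fell. Without growth-light replicates 1, 2 and 3 in turn, 1, 2 and 1 rose and 0 fell, and RVE8 was also lost without high-light replicates 1 and 2. The hour of sampling of each library, with which clock genes move, is not given in the sources used here.

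The evening element, AAAATATCT, a site bound by CCA1 and its relatives, stood in the windows of 8 of the 27 clock genes, among them FKF1, LUX, PRR5 and TOC1. Over all genes it stood in 4.733% of the windows of higher genes, 2.85% of those of lower genes and 3.021% of all tested. The G-box, CACGTG, stood in 11.62%, 6.287% and 8.958% of the windows of higher, lower and all genes.

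Cold- and abscisic acid-response genes rose in 9 of 27 members, with 1 lower and a median of 1.35. ERD10, a dehydrin, had 216, 190 and 217 CPM in high light and 12.8, 15.9 and 11.6 CPM in growth light (log2 3.95 ± 0.30, adjusted p = 0.00243). RD29A, a classic reporter of drought and cold, had 146, 122 and 298 CPM in high light and 7.66, 4.58 and 6.44 CPM in growth light (log2 4.92 ± 0.49, adjusted p = 0.00368). COR47, another dehydrin, had 1156, 858 and 454 CPM in high light and 99.2, 88.2 and 97.1 CPM in growth light. Their high-light libraries were within a factor of 3 of each other, replicate 3 included. KIN2 and COR15A, of the same cold regulon, were lowest in replicate 3, with 1709.8, 597 and 48.2 CPM for KIN2 and 39.7, 10.4 and 1.49 CPM for COR15A in high light, against 33.5, 22.3 and 25.0 CPM and 0.845, 0.410 and 0.317 CPM in growth light. CBF3, their activator, had 3.45, 2.83 and 0.649 CPM in high light and 0.225, 0.137 and 0.211 CPM in growth light. NCED3, of abscisic acid synthesis, fell to 3.23, 1.46 and 1.83 CPM in high light, against 6.82, 8.47 and 5.91 CPM in growth light (adjusted p = 0.0363). Without replicate 3, 15 rose and 2 fell. Leaving out any 1 growth-light library left 2 higher and 0 lower, and without high-light replicates 1 and 2, 5 rose in each case, with 1 and 0 lower.

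The dehydration-responsive element core, ACCGAC or GCCGAC, to which CBF and DREB2 factors bind, stood in 19.17% of the windows of higher genes (320 of 1669), 5.784% of those of lower genes (69 of 1193) and 9.948% of all tested. The share in the cold and abscisic acid list was not counted, and the 250 bases upstream of ERD10 hold 0 such cores. The 250 bases upstream of RD29A (chr5:21240467-21240716, plus strand) hold 3 such cores, marked by capitals, and are shown as the example with the most among the genes printed.
RD29A: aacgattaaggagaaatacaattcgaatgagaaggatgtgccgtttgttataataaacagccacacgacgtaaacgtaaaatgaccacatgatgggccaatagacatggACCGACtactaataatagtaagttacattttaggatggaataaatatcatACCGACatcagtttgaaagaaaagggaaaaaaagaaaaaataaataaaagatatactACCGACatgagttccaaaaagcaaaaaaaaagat

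Galactinol synthases, which start raffinose synthesis, rose with them. GOLS1 had 2009.6, 945 and 939.5 CPM in high light and 20.6, 19.6 and 23.1 CPM in growth light (log2 5.94 ± 0.54, adjusted p = 0.00309). GOLS2 had 12.2, 2.75 and 29.2 CPM in high light and 0.0563, 0 and 0 CPM in growth light, a ratio of 950 with a 95% counting interval of 170 to 37556. The proline genes P5CS1 (synthesis) and PRODH1 (breakdown) both fell, by 1.297 and 1.41 on the log2 scale. Without replicate 3, 3 of the 7 raffinose and proline genes rose and 3 fell. GOLS1 alone passed without any 1 growth-light library, and P5CS1 and PRODH1 were lost without high-light replicate 1 or 2.

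Several genes of the cell wall and of growth were among those that fell most. Of the 12 largest falls among named genes, EXPA8 and EXPA1 encode expansins that loosen the wall, PME5 a pectin methylesterase, GATL3 a galacturonosyltransferase-like protein, and KCS19 a ketoacyl-CoA synthase. EXPA8 had 3.82, 7.69 and 0.0382 CPM in high light and 170.4, 169.9 and 162 CPM in growth light (log2 -5.47 ± 1.32, adjusted p = 0.0349). KCS19 had 3.60, 1.94 and 1.87 CPM in high light and 87.9, 92.5 and 80.7 CPM in growth light (log2 -5.14 ± 0.38, adjusted p = 0.00233). GATL3 had 1.396, 1.46 and 0.802 CPM in high light and 27.0, 26.501 and 29.2 CPM in growth light. KCS19 and GATL3 were even across the high-light libraries, and EXPA8 was lowest in replicate 3. ENODL15, an early nodulin-like arabinogalactan protein, had 0.294, 0 and 0.153 CPM in high light and 15.6, 13.9 and 14.5 CPM in growth light. ESE3, an ethylene response factor, had 0.220, 0 and 0 CPM in high light and 13.5, 9.90 and 11.4 CPM in growth light, a ratio of 203 lower with a 95% counting interval of 69.2 to 988. PKS4, a phytochrome kinase substrate of phototropism, had 1.18, 1.21 and 0.305 CPM in high light and 19.0, 23.2 and 20.6 CPM in growth light. The others were UCC3, OZF1, IRT1, an iron transporter of the root, and scpl28, which fell by 5.91, 4.60, 4.45 and 4.32.

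By list, 5 of 23 expansins and wall enzymes fell and 0 rose (median -0.99). EXPA11 fell to 9.18, 4.86 and 5.003 CPM in high light, against 41.4, 34.8 and 36.8 CPM in growth light (log2 -2.57 ± 0.34, adjusted p = 0.00685). The cellulose synthase genes CESA1, CESA3 and CESA6 overlapped between the groups. Of 12 PIF and shade-response genes, 5 fell and 0 rose (median -1.94). PIF5 had 18.0, 18.3 and 33.1 CPM in high light and 117, 108 and 117 CPM in growth light (log2 -2.30 ± 0.34, adjusted p = 0.0085), and BAS1, which inactivates brassinosteroids, fell by 2.41. HBI1, a growth-promoting factor, had 3.09, 10.4 and 12.6 CPM in high light and 37.4, 39.9 and 33.3 CPM in growth light. PIF4 was lower in all 3 high-light libraries by a small amount, at 32.8, 34.2 and 48.9 CPM in high light and 53.3, 53.3 and 52.8 CPM in growth light (adjusted p = 0.281). Without replicate 3, 13 wall genes fell and 3 rose, and 7 shade genes fell and 3 rose. Without growth-light replicate 2, 2 wall genes fell, and without growth-light replicates 1 and 3, 0 did. Shade genes had 0 calls without any 1 growth-light library, and without high-light replicate 1, 3 genes of each list fell. Without high-light replicate 2, 3 wall genes fell.

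Auxin genes fell in 7 of 23 members, with 0 higher and medians of -1.50, -1.18 and -3.12 in high-light replicates 1, 2 and 3. IAA3, an auxin-response repressor, had 3.23, 7.45 and 3.44 CPM in high light and 15.6, 18.17 and 13.8 CPM in growth light (log2 -1.76 ± 0.41, adjusted p = 0.031). The small auxin-up RNAs SAUR15, SAUR19, SAUR23, SAUR24 and SAUR65, which promote cell expansion, fell, each at under 10 CPM in every growth-light library. SAUR65 had 0.588, 1.62 and 0.191 CPM in high light and 6.76, 6.08 and 7.18 CPM in growth light. PIN3, an auxin exporter of tropic growth, was lower in all 3 high-light libraries at 17.9, 31.2 and 3.82 CPM, against 88.3, 89.5 and 90.43 CPM in growth light, and passed without replicate 3 (log2 -1.86; adjusted p = 0.0596 with it). Of 10 gibberellin and brassinosteroid genes, 3 fell. CPD, a brassinosteroid hydroxylase, had 62.7, 61.8 and 64.4 CPM in high light and 167, 159 and 158 CPM in growth light (log2 -1.36 ± 0.25, adjusted p = 0.0158), and GA20OX1 and GA20OX2, of gibberellin synthesis, fell by 4.06 and 3.26. Without replicate 3, 13 auxin genes fell and 0 rose, and 3 gibberellin and brassinosteroid genes fell and 3 rose. Neither list had a call (0) without any 1 growth-light library, and without high-light replicates 1 and 2, 2 and 4 auxin genes fell. Without high-light replicate 2, 1 gibberellin or brassinosteroid gene fell.

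Of 22 cell cycle genes, 2 fell, both D-type cyclins, a share near the 6.47% of all genes called lower. CYCD3;1, which drives entry into division, had 6.17, 4.13 and 3.78 CPM in high light and 12.4, 11.8 and 11.9 CPM in growth light (log2 -1.36 ± 0.31, adjusted p = 0.0293), and CYCD1;1 had 9.18, 5.83 and 4.74 CPM in high light and 19.0, 16.7 and 15.04 CPM in growth light. The mitotic cyclin CYCB1;2 had 0.147, 0 and 3.86 CPM in high light and 7.61, 6.08 and 8.50 CPM in growth light, lowest in replicates 1 and 2. The list's medians were -1.46, -1.56 and 0.00 in high-light replicates 1, 2 and 3, and without replicate 3, 14 fell and 1 rose. Without any 1 growth-light library 0 passed, and without high-light replicate 2, 1 did. Aquaporins, the water channels of membranes, had 0 calls among 14, with medians of 0.43, 0.08 and -3.89. TIP1;1, of the vacuole, had 4480.5, 2727 and 46.6 CPM in high light and 1146, 1019.5 and 1148 CPM in growth light. Of the 14, 6 rose and 1 fell without high-light replicate 3, and 1 fell without high-light replicate 1.

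Sugar and nitrate status genes changed in few members. TPS8 and TPS11, class II trehalose phosphate synthase-like genes, fell by 2.35 and 1.44, and BAM1, a plastid beta-amylase, rose by 1.79, which makes 1 of 14 higher and 2 lower. TPS8 had 34.8, 59.1 and 35.1 CPM in high light and 218, 223 and 214 CPM in growth light. The root nitrate exporter NRT1.5 fell to 9.55, 8.34 and 17.0 CPM in high light, against 60.003, 68.4 and 64.0 CPM in growth light (log2 -2.46 ± 0.35, adjusted p = 0.00788), and it was the single call among 7 nitrate genes. Without replicate 3, 1 sugar gene rose and 8 fell, and 2 nitrate genes rose and 2 fell. Without any 1 growth-light library 0 genes of either list passed, and BAM1 was lost without high-light replicate 2.

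Markers of organs were measured beside these groups. Of 16 root markers tested, 6 fell and 0 rose (median -1.37), and their summed level was 702, 570 and 353 CPM in high light and 2393, 2786 and 2562 CPM in growth light. Most of the growth-light sum was BGLU23, a beta-glucosidase of ER bodies, with 263, 287 and 309 CPM in high light and 2017, 2441 and 2196 CPM in growth light (log2 -2.95 ± 0.41, adjusted p = 0.00746). The fall of the sum therefore follows this gene and does not show how the other root markers moved. CASP1, which marks the endodermis, had 85.7, 70.1 and 1.41 CPM in high light and 54.9, 43.7 and 52.2 CPM in growth light, above growth light in replicates 1 and 2 and near 1 CPM in replicate 3. PHT1;1, a root phosphate transporter, had 162, 96.0 and 4.85 CPM in high light and 126, 120 and 121 CPM in growth light. Of 5 shoot cell type markers, SUC2, the phloem companion cell sucrose transporter, fell to 20.1, 22.7 and 2.79 CPM in high light, against 109, 101 and 105 CPM in growth light (adjusted p = 0.0409). The 8 green-tissue markers summed to 140072, 67773 and 7723 CPM in high light and 120644, 103417 and 112751 CPM in growth light. Of 11 seed storage and late embryogenesis genes, 0 passed the filter, and SESA2, OLEO1 and CRB were at 0 in all 6 libraries. Root and green markers were thus present in every library of the labelled seedlings, and the part of organ composition in the other results was not tested. Without replicate 3, 10 root markers fell and 2 rose, and 3 of the 5 shoot markers fell. Leaving out any 1 growth-light library left 0 calls in both lists. Without high-light replicates 1 and 2, 3 and 4 root markers fell and SUC2 did not pass.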

How the data were processed

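RNA of whole seedlings was sequenced in 21 libraries, of which the 6 wild-type ones in high or growth light were compared. The authors deposited whole-number counts of reads for each gene, not normalized. The submitters' processing notes name build TAIR10 and the tools DESeq2 1.20.0, featureCounts 1.5.0-p3, HISAT2 2.0.5, fastp and StringTie 1.3.3b without saying what each one did. The strand setting is not given in the sources used here, so reads of a gene and of an overlapping or antisense gene cannot be told apart. Library totals in the series ran from 7283290 to 22101539 counts, and each column was matched to a sample through its label, leaving 0 columns unused.

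Counts were tested with edgeR 4.0.16 in R 4.3.3: quasi-likelihood F tests with robust dispersion on the 6 libraries, after filterByExpr by group and TMM scaling, and a gene was called at an adjusted p under 0.05 (Benjamini-Hochberg, 18425 genes). CPM are counts over the TMM library size, and a library of median depth holds about 16.2 counts per CPM. The TMM factors were 0.681, 0.957 and 1.30 in high-light replicates 1, 2 and 3 and 1.04 to 1.08 in growth light. They enter every comparison of CPM between libraries. After ± stands the SE of the log2 fold change, which is the change over the root of F. Differences of single libraries use log2 CPM with a prior count of 2. Where a growth-light group held 0 counts, the fold takes 3 counts for its libraries together, and ratios on 1 to 3 counts carry an exact 95% interval; both cover counting error only. The labels call the libraries biological replicates without naming separate cultures, so p-values measure the spread between these samples. Tests were checked on simulated counts.

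The comparison and the gene lists were chosen with earlier results of these data known, and so was the rule for named genes: the 12 largest called changes in each direction with a symbol, a mean of at least 100 counts and no overlap between groups, the members of each list with the smallest adjusted p and some that did not pass, HY5, and the 6 genes farthest above and below in high-light replicate 3. Genes named for the smallest p of the table, and HSFA6B, were chosen after their values were seen. Lists were described by counts and medians. Alternatives were library totals without TMM, nuclear genes only, DESeq2 1.42.0, limma 3.58.1 with voom sample weights, other filters, all 21 libraries in 1 fit, a replicate block, a term for the kind of column name, a stricter p or fold, and leaving out each library. The heat shock element pair was added after seeing the data. Same-numbered libraries of the 2 groups did not deviate together (r = 0.133, -0.028 and 0.043), so the numbers were not used as pairs.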

Additional observations from a re-analysis of the deposited data

How the results depend on the processing

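The count of 2906 called genes (1713 higher, 1193 lower, 172 of 554 list members) moved with the model of the spread and, most, with leaving out 1 growth-light library. DESeq2 called 4836 (2705 higher, 2131 lower), and all 21 libraries in 1 fit called 5019 (2828 higher, 2191 lower). The limma voom fit with sample weights called 10302 (5134 higher, 5168 lower, 402 list members). It gave high-light replicates 1, 2 and 3 weights of 0.264, 2.40 and 0.0433, and the growth-light libraries 2.36 to 5.18. Without TMM, 1011 were higher and 992 lower, which takes the higher share of the calls to 50.5%, against 58.9% with TMM. A term for the kind of column name left 1481 (883 higher, 598 lower), and an adjusted p under 0.01 left 628 (413 higher, 215 lower, 80 list members). With the replicate block, although the numbers did not pair the libraries, 1297 were called (756 higher, 541 lower, 107 list members). Leaving out 1 library gave 179 to 9114 calls (123 to 4694 higher, 56 to 4420 lower, 35 to 359 list members), the highest without high-light replicate 3 and the lowest without growth-light replicate 1. The share of genes called from replicates 1 and 2 that held in replicate 3 was 70.3% of the higher and 79.2% of the lower by sign, and 42.6% and 54.1% by at least 1 on the log2 scale. The full heat shock element stood in 2.397% of the windows of higher genes, against 0.5691% of all genes tested. In the 250 upstream bases alone the shares were 1.498% and 0.4378%. Its pair stood in 22.95% of the windows of higher genes, against 18.73% of all. Of the 180 listed or named genes that were called, 0 turned direction in any setting. Since 1711 of the 1713 higher and all 1193 lower genes were separated between the groups, leaving out a library could hardly turn them. Calls were lost in 140, 132 and 138 of the 180 without growth-light replicates 1, 2 and 3. They were lost in 93 at an adjusted p under 0.01, in 65 with the replicate block and in 0 without high-light replicate 3. The gene psbL, which was not called, was at 0.31 on the log2 scale. It ran from -2.99 without high-light replicate 3 to 0.90 without high-light replicate 1, and the cause was not tested. Genes near 1 CPM rest on about 16.2 counts.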
